A study of Mus musculus with 7 samples.

Results

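The proteasome genes of a retinoic acid time course in mouse embryonic stem cells were taken as every symbol of the deposited table that begins with Psm, a letter from a to g and a number. This gave 46 of the 12071 symbols. For a symbol with several transcripts, the row kept was the transcript whose mean over all 7 days was highest, which concerned 4 members. Among the matches, Psmc3ip encodes a partner of the meiotic recombinases and is no proteasome subunit. It was kept under the pattern, so every count of 46 members includes it, and it belongs to none of the subunit classes. The immunoproteasome genes Psmb8 and Psmb9 and the thymoproteasome gene Psmb11 were not analysed here, so Psmb10 alone stood for that class.

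The cells were of the established mouse embryonic stem cell line CCE, cultured on gelatin with no feeder layer. Day 0 cells had serum medium, the cytokine LIF (leukemia inhibitory factor), under which such cells do not differentiate, and the solvent DMSO. On days 1 to 6 LIF was removed and retinoic acid was present at 5 µM, so LIF withdrawal, retinoic acid and time in culture cannot be told apart. Each of the 7 days has a single library of total RNA freed of ribosomal RNA, and no label says if these came from different cultures. Each p-value for a slope therefore measures the spread of single libraries around a line on day. The stem cell label of day 0 was met by its markers, with Pou5f1 at 14.40 and Nanog at 11.46 on the deposited log2 scale; by day 5 all 7 stem cell markers listed were down by 1.5-fold or more, and all 7 extraembryonic endoderm markers and 5 of 6 fibroblast markers were up by that much. The part of this change of cell state in the results on proteasome genes was not tested. In bulk RNA, fewer cells of a type and less RNA per cell cannot be told apart.

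The 26S proteasome degrades proteins tagged with ubiquitin. Its 20S core is a barrel of stacked rings: the outer rings of alpha subunits (Psma genes) gate the entry, and the inner rings of beta subunits (Psmb genes) hold the proteolytic sites, which lie in the products of Psmb5, Psmb6 and Psmb7. In the immunoproteasome, which is made in immune cells and after interferon and favours peptides for MHC class I, these are replaced by the products of Psmb8, Psmb9 and Psmb10. The 19S regulator caps the core with a ring of ATPases (Psmc genes), which unfold substrates, and with non-ATPase subunits (Psmd genes), which bind and trim ubiquitin. Other caps are the activators PA28 (Psme1, Psme2 and Psme3) and PA200 (Psme4). Most core and 19S genes are transcribed together in many cell types, and the transcription factor Nfe2l1 raises them when proteasome activity is short.

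Because most of the members moved together and a few of the PA28 genes did not, promoter sequence is shown for 3 members with called falls (Psmg1, Psmc4 and Psmb5) and for the neighbouring genes Psme1 and Psme2. Promoter windows came from RefSeq in build GRCm38.p6 and reach from 250 bases before to 50 bases after the annotated start. Of the 46 members, 38 had an entry. Psma8, Psmb1, Psmb2, Psmb7, Psmc3, Psmd3, Psmd7 and Psmg2 had none. Printed are the 250 bases before the start, 5′ to 3′ on the gene's strand, in lower case, with matches to the searched motifs in capitals. They lie at chr16:95990961-95991210 (minus strand), chr7:28050093-28050342 (minus strand), chr14:54617996-54618245 (minus strand), chr14:55578244-55578493 (plus strand) and chr14:55591102-55591351 (minus strand, the first of the starts listed).

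Psmg1: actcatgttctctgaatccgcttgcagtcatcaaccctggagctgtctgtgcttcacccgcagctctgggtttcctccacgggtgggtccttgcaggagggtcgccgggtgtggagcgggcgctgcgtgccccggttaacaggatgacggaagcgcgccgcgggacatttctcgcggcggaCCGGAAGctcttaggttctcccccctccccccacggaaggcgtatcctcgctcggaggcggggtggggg
Psmc4: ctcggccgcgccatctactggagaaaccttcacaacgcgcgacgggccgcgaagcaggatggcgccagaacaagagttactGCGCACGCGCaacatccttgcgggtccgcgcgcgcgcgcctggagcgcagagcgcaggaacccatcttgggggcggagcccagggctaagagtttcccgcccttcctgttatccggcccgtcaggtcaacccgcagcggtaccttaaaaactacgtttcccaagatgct
Psmb5: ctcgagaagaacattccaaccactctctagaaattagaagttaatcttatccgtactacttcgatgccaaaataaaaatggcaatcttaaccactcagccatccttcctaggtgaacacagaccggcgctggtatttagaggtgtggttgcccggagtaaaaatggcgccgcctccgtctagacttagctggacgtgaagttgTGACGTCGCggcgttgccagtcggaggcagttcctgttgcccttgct
Psme1: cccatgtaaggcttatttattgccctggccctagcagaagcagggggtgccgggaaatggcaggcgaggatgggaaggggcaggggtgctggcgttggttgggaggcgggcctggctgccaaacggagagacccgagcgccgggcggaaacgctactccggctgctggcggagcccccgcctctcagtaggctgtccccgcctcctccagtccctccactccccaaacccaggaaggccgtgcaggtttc
Psme2: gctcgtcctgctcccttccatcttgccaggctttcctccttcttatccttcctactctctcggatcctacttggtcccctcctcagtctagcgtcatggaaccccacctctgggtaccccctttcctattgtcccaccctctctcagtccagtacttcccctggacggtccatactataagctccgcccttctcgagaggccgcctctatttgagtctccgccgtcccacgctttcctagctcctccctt

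The capitals mark the ETS motif CCGGAAG in Psmg1, the motif of the factor NRF1, not Nfe2l1 (GCGCA, any base, then GCGC; here GCGCACGCGC) in Psmc4, and the antioxidant response element core (TGAC, any 3 bases, then GC; here TGACGTCGC) in Psmb5. Both strands were searched, and the motifs do not share letters at these places. Within the 50 bases after the start, not printed, Psmg1 held an NRF1 match, GCGCATGCGC, and Psme1 held TTTCGCTTTC, which is the interferon-stimulated response element core (GAAA, any pair of bases, then GAAA) on the other strand. For the shares that follow, a gene counted as a match if any of its listed windows held the motif. The ETS motif was in 15 of 38 members (39.5%), against 9.93% of all 27025 genes with an entry. Of the 8430 genes that are also in the table, 19.7% had it. The NRF1 motif was in 7 of 38 (18.4%, against 5.19% and 11.7%), the antioxidant core in 6 (15.8%, against 14% and 17.1%), CCAAT in 13 (34.2%, against 41.1% and 43.3%) and the interferon core in 5 (13.2%, against 3.99% and 3.31%). These 5 were Psmb3, Psmd4, Psmd9, Psme1 and Psmg4, and Psme2 had no match. In the fits described below, Psmb3 and Psmd4 were called falls, as was Psmg4 with no filter. Psmd9 and Psme1 had no call in the main fit. The retinoic acid response element of the DR5 kind was searched as AGGTCA repeated after any 5 bases. It was in 0 of 38 members and in 0.0111% of all genes with an entry. These are matches of letters in a window and say nothing on binding.

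Most proteasome genes were lower at the end of days 0 to 5 than at the start. The level of each transcript is the deposited log2 value, whose linear form moves in whole steps of 1 read per library. The lowest value in every library is 1 such step, so recovered read numbers may be 1 too high if 1 read was added before scaling, on which labels and file are silent. A straight line on day was fitted with limma to the 7242 symbols whose mean lay above the 40th percentile, 39 of them members, and slopes are in log2 units per day ± standard error (SE). Of these 39, 23 fell and 0 rose at an adjusted p under 0.05 (limma, Benjamini-Hochberg over all genes fitted), while 26.6% of all fitted genes fell and 25.9% rose. At an unadjusted p under 0.05 the members' numbers were 31 and 0. The shares over all fitted genes at an unadjusted p were not counted, here or below. The median slope of the 39 was −0.14, against 0.0011 over all fitted genes. In a fit of all 12071 symbols with no filter, 28 of the 46 members fell and 1 rose, against 22.1% and 25.9% of all symbols.

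**Figure D1:**
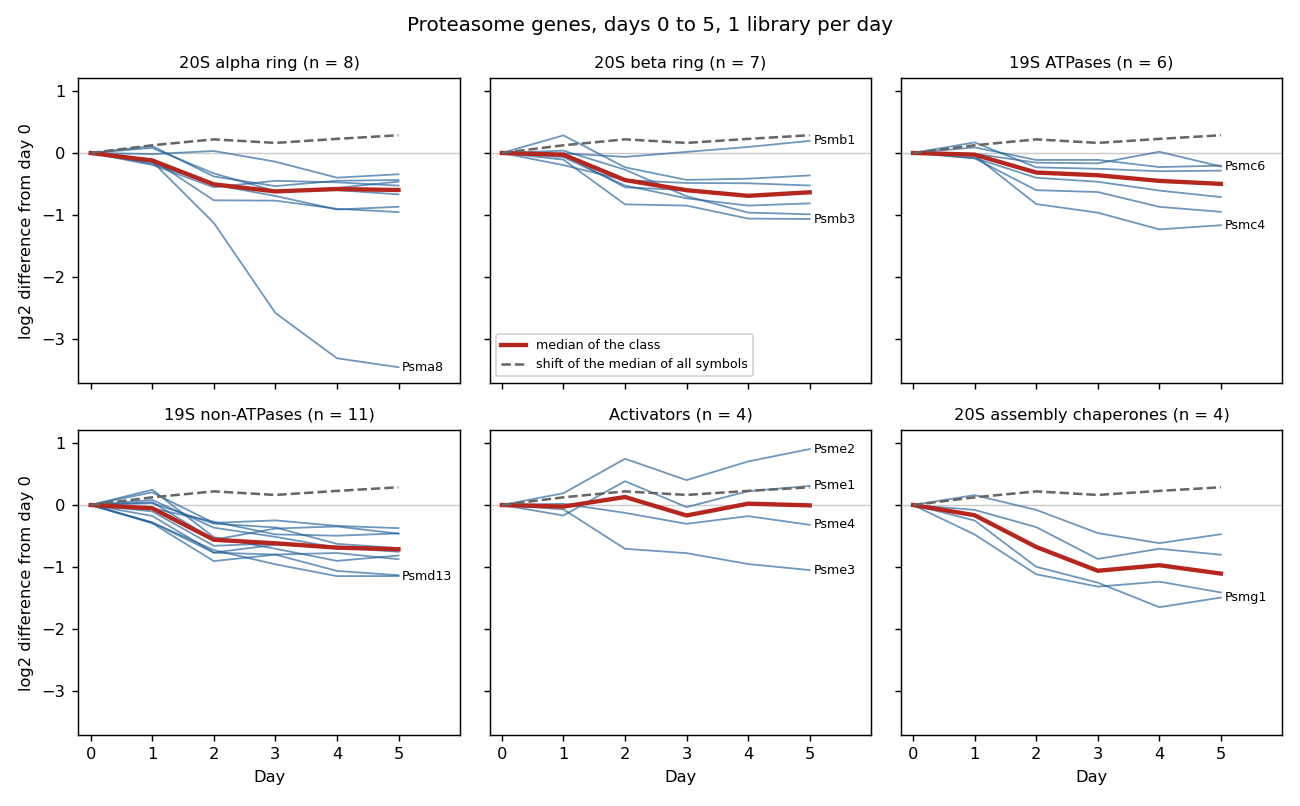
Difference from day 0 on the deposited log2 scale (vertical axis) on days 0 to 5 (horizontal axis), with 1 thin line per gene, the class median in red and the shift of the median of all symbols dashed. Psmb10, Psmf1, Psmc3ip and the 19S chaperones are not drawn. The median of the 20S assembly chaperones ends day 5 at −1.10 and that of the activators at −0.0064, and the class medians of the core and 19S genes drop most from day 1 to day 2.

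The drop came mainly between day 1 and day 2. On day 1 the members' median difference from day 0 was −0.047, with 28 of 46 lower (40.2% of all symbols were), and 0 of 46 were 1.5-fold apart in either direction, although 8.33% of all symbols were down by 1.5-fold or more and 19% were up by that much. From day 1 to day 2 the median step was −0.43 and 42 of 46 members went down (49.2% of all symbols did); 13 were at least 1.5-fold lower (13.1% of all symbols were) and 0 at least 1.5-fold higher. The next 3 daily steps had medians of −0.13, −0.087 and 0.0036, and 38 of 46 were lower on day 5 than on day 2 (51.8% of all symbols were). On day 5 the members' median stood at −0.65 from day 0, against 0.13 over all symbols, with 42 of 46 lower (45.8% of all symbols were); 25 were at least 1.5-fold lower (26.5% of all symbols were) and 1, Psme2, at least 1.5-fold higher (36% of all symbols were).

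Of 7 alpha ring genes fitted, 3 fell: Psma6 (slope −0.20 ± 0.04, adjusted p = 0.0104), Psma5 (−0.19 ± 0.03, adjusted p = 0.00566) and Psma4 (−0.16 ± 0.04, adjusted p = 0.0137; 0.0898 after a correction for transcript length, described below), in the limma fit. Over all fitted genes 26.6% fell. After the length correction 2 of the 7 fell, Psma5 and Psma6, near the share of 26.4% over all fitted genes. The median slope of the 7 was then −0.034. Psma6 stood at 11.54, 11.44, 10.78, 10.77, 10.64 and 10.59 on days 0 to 5. Days 0 and 1 were high and days 2 to 5 low, with no overlap. How many of all symbols have such a split was not counted, here or for the genes below. The other 4 fitted genes had slopes from −0.11 (Psma1) to −0.09 (Psma7) that did not pass, and Psma7 still stood at 11.58 on day 2, above its 11.55 on day 0.

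Psma8, the alpha subunit that replaces Psma7 in spermatogenic cells, went furthest of all members. It lay below the filter, at 7.03, 6.89, 5.90, 4.45, 3.72 and 3.58 on days 0 to 5, each day below the last. These values rest on 68 reads on day 0 and 10 on day 5, a log2 difference of −3.45 (95% counting interval −4.57 to −2.48), or 10.9-fold lower. Its slope in the unfiltered limma fit was −0.81 ± 0.12 (adjusted p = 0.00371). Psma8 was also the lowest of all members per length on day 0, at 76.9 scaled reads per kilobase where Psma7 had 3369.

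In the 20S beta ring, 5 of 7 genes fell (26.6% of all fitted genes did). Psmb5, which carries the chymotrypsin-like site, stood at 11.57, 11.60, 11.30, 10.87, 10.61 and 10.58 on days 0 to 5. It kept its level for 1 day and then went down to day 4, ending 1.98-fold below day 0 (log2 −0.99, counting interval −1.10 to −0.88; slope −0.24 ± 0.04, limma adjusted p = 0.00411). Psmb6, with the caspase-like site, stood at 11.88, 11.81, 11.36, 11.15, 11.03 and 11.07 and fell (slope −0.19 ± 0.04, limma adjusted p = 0.00816). Psmb7, with the trypsin-like site, stood at 12.02, 11.99, 11.46, 11.42, 11.33 and 11.38 and fell as well (slope −0.15 ± 0.04, limma adjusted p = 0.0224). For all 3, days 0 and 1 lay above all later days, a split whose share over all symbols was not counted. Psmb7 lost its call after the length correction (slope −0.05, limma adjusted p = 0.165) and without day 0, day 1 or day 4 (limma adjusted p = 0.113, 0.0575 and 0.0736).

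The structural beta gene Psmb3 had 12.03, 11.92, 11.20, 11.18, 10.97 and 10.96 on days 0 to 5, with days 0 and 1 again apart from the rest (slope −0.23 ± 0.05, limma adjusted p = 0.00776, or 0.0502 without day 0; 2.09-fold lower on day 5). Psmb2 fell by a smaller slope of −0.10 ± 0.03 (limma adjusted p = 0.0417), a call that the length correction ended (slope −0.0029, limma adjusted p = 0.934), and Psmb4 had −0.12 (adjusted p = 0.0695), with its highest value on day 1. Psmb1, a structural subunit of the same ring, was the exception. It stood at 11.37, 11.36, 11.30, 11.38, 11.46 and 11.56, a slope of 0.04 ± 0.03 that did not pass (limma adjusted p = 0.286). The sign of its day 5 difference depended on scaling: 0.19 as deposited and −0.091 with median-centred libraries.

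Levels can be compared between genes per length. Over the 14 core genes other than Psma8, the median level was 3038 scaled reads per kilobase at the start, 2272 after 2 days and 1964 after 5. Their spread between genes (SD of the log2 level per kilobase) was 0.43 on day 0 and 0.42 on day 5. Psma1 was the lowest on day 0 with 1802 and Psmb3 the highest with 5658, while on day 5 Psma5 was the lowest with 1242 and Psmb1 the highest with 2900. Summed over the 14 genes, the level was 43419 at the start, 42383 after 1 day, 32296 after 2 days and 28460 after 5 days.

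Psmb10, the trypsin-like subunit of the immunoproteasome (NM_013640, chromosome 8, 108459627 to 108462292 in mm9, minus strand), was low on day 0 and lower afterwards. It lay below the filter, at 8.53, 8.20, 6.86, 6.75, 6.96 and 7.04 on days 0 to 5, from 192 reads on day 0 to 66 on day 2 and 110 on day 5. Days 0 and 1 stood above days 2 to 5 with no overlap, a split whose share over all symbols was not counted. The step from day 1 to day 2 was −1.34 (counting interval −1.77 to −0.92), the largest downward step of any member between those days, and day 5 was 2.81-fold below day 0. Its slope in the unfiltered limma fit was −0.32 ± 0.11 (adjusted p = 0.0475).

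Per length, Psmb10 was at 6.81, 5.54, 3.15, 3.01, 3.71 and 3.76% of its constitutive counterpart Psmb7 over days 0 to 5. The slope of their log2 ratio was −0.17 per day, which did not pass an exact permutation test over all 720 orders of the 6 days (two-sided p = 0.139, smallest possible p = 0.00278; 1 of the 3 pairs set could be tested, so adjustment leaves p as it is). The ratio was above 5% on days 0 and 1 and below it from day 2 on. Leukocytes, which make the immunoproteasome constitutively, had 5 of 13 fixed marker genes in the table. Ptprc and Spi1, which define the lineage, were among those not listed. The log2 of their summed level, dominated by Laptm5 (12.20 on day 0, 5.21 on day 5), was 12.44 on day 0, 10.91 on day 1 and between 8.62 and 8.98 on days 2 to 5. The sum was high on the same days as Psmb10, but the other listed markers did not all follow it. Cd68 went from 9.07 on day 0 to 7.41 on day 5 and Itgam from 6.78 to 5.81. Coro1a was highest on day 1 (7.65), and Csf1r went up from 6.26 on day 0 to 6.67 on day 5. The part of leukocytes in the Psmb10 result was not tested.

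**Figure D2:**
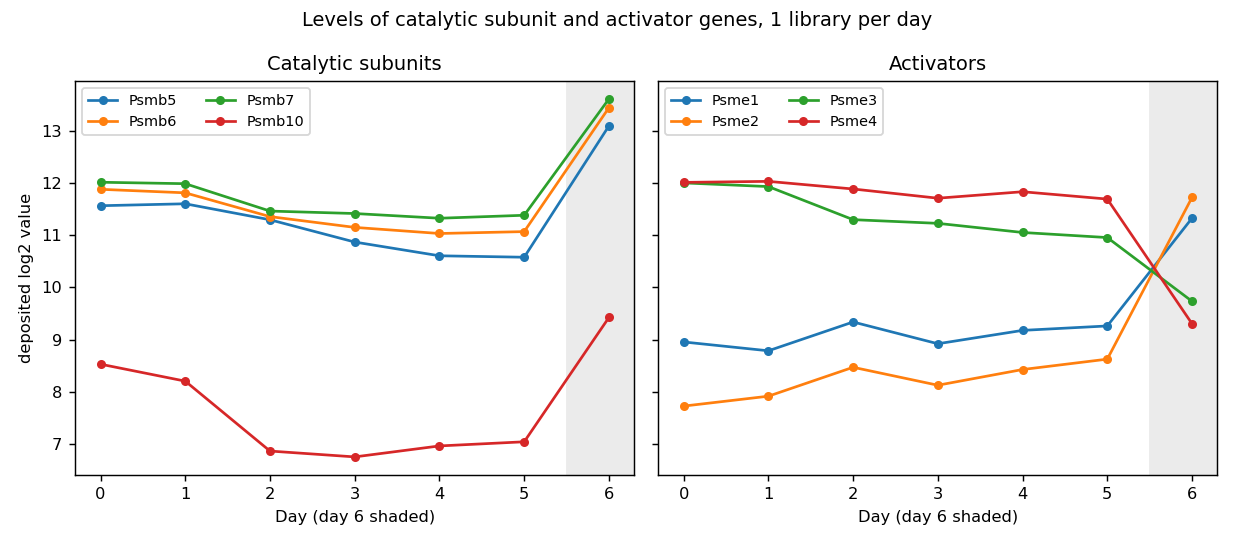
Deposited log2 values (vertical axis) of the catalytic subunit genes (left) and the activator genes (right) by day (horizontal axis), 1 library per day, with day 6 shaded. Psmb5, Psmb6 and Psmb7 end day 5 between 10.58 and 11.38 while Psmb10 lies at 7.04, and Psme1 and Psme2 end day 5 above their day 0 values while Psme3 and Psme4 end below.

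In the 19S regulator, all 11 non-ATPase subunit genes had a negative slope and 9 fell (26.6% of all fitted genes did), with a median of −0.16. Psmd13 had the steepest slope among them, at 11.36, 11.08, 10.63, 10.40, 10.21 and 10.21 on days 0 to 5. It was lower each day until day 4 and then level, 2.21-fold below day 0 at the end (slope −0.24 ± 0.04, limma adjusted p = 0.00415). Psmd14, the deubiquitinase that removes ubiquitin chains from substrates, was close behind with −0.22 ± 0.04 (limma adjusted p = 0.00807), going from 11.22 to 10.09. Psmd3, Psmd1, Psmd7, Psmd2, Psmd12, Psmd4 and Psmd8 fell too, by slopes from −0.22 (Psmd3) to −0.11 (Psmd8). After the length correction Psmd4, Psmd7, Psmd8 and Psmd12 no longer passed (limma adjusted p = 0.248, 0.0581, 0.225 and 0.0598). Psmd1 and Psmd2 are the large scaffold subunits, and Psmd4 is a ubiquitin receptor. Psmd6 and Psmd11 had slopes of −0.10 and −0.09 that did not pass (limma adjusted p = 0.0762 and 0.124).

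In the ATPase ring all 6 genes had a negative slope and 3 fell (26.6% of all fitted genes did). Psmc4 stood at 12.28, 12.24, 11.46, 11.32, 11.05 and 11.12 on days 0 to 5. A step of −0.78 (counting interval −0.87 to −0.69) separated days 0 and 1 from the rest, and day 5 was 2.24-fold below day 0 (slope −0.27 ± 0.05, limma adjusted p = 0.00613). Psmc5 (−0.20 ± 0.03, limma adjusted p = 0.00488) and Psmc2 (−0.15 ± 0.03, limma adjusted p = 0.00794) fell as well. Psmc1, Psmc3 and Psmc6 had slopes of −0.081, −0.056 and −0.029 that did not pass. Psmc6, which had the lowest level per length of the ring on day 0 (1095 scaled reads per kilobase), was at 10.75 on day 0 and 10.77 on day 4. The highest, Psmc5, went from 3620 per kilobase on day 0 to 1876 on day 5, so the spread between the 6 ATPase genes narrowed from an SD of 0.66 to 0.47 on the log2 scale.

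Among the 20S assembly chaperones, Psmg1 had the steepest called slope of the filtered members. It stood at 9.87, 9.62, 8.87, 8.62, 8.22 and 8.38 on days 0 to 5, lower each day until day 4, and 2.81-fold below day 0 on day 5 (slope −0.34 ± 0.06, limma adjusted p = 0.0047; log2 −1.49, counting interval −1.71 to −1.27). Its partner Psmg2, with which it places the alpha ring, fell by −0.14 ± 0.05 (limma adjusted p = 0.0404), with its highest value, 9.03, on day 1, and lost its call after the length correction (slope −0.05, limma adjusted p = 0.322). Psmg3 and Psmg4, the other chaperone pair, lay below the filter; Psmg4 went from 8.14 to 6.73 and Psmg3 from 8.09 to 7.29, with unfiltered slopes of −0.27 and −0.18 (limma adjusted p = 0.0186 and 0.0318). Of the 19S chaperones, Psmd5 and Psmd9 had slopes of −0.10 and −0.11 that did not pass (limma adjusted p = 0.0864 and 0.0751). Psmd10, known as gankyrin, stood between 7.94 and 8.27 on all 6 days, and the sign of its day 5 difference changed with scaling (0.17 as deposited, −0.12 median-centred, −0.21 quantile-normalized). No test compared the 2 sets of chaperones.

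**Figure D3:**
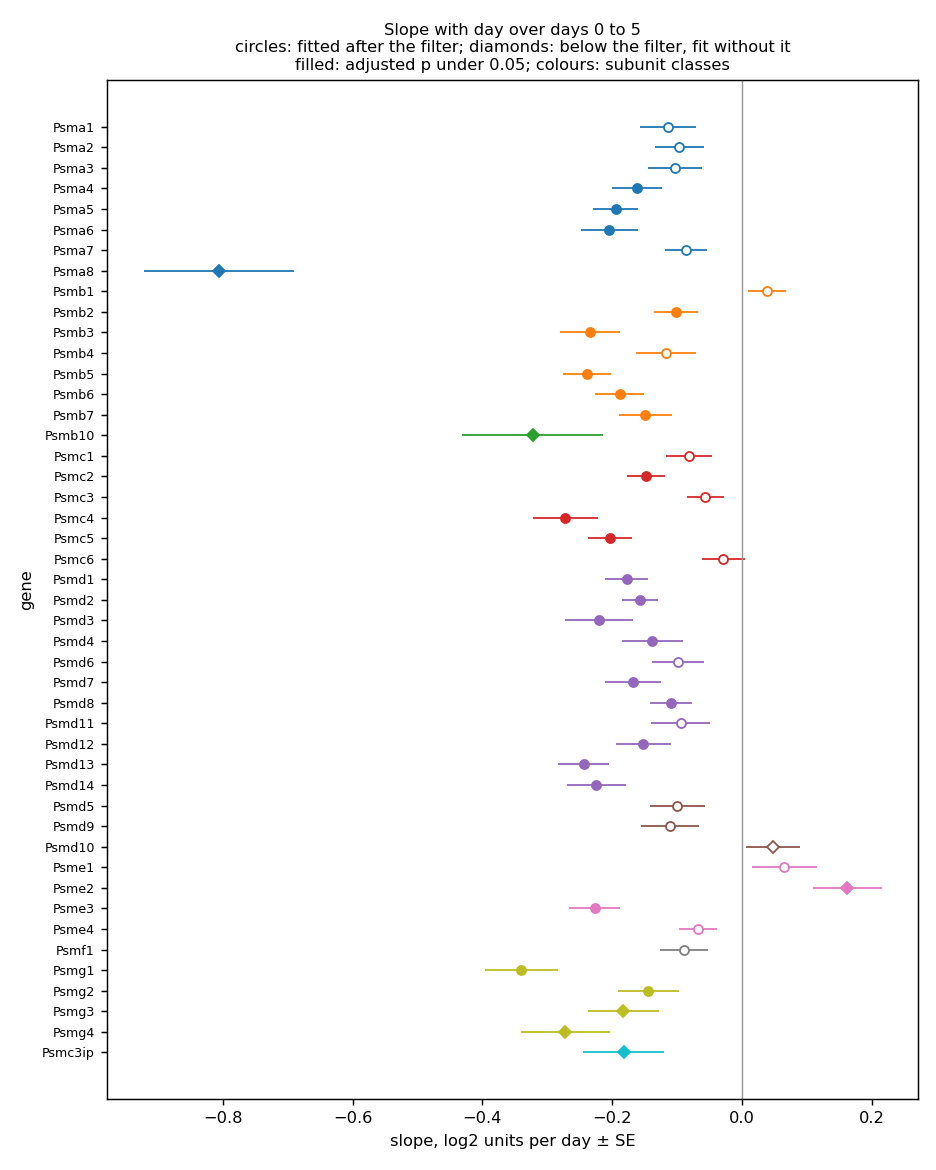
Slope with day over days 0 to 5 in log2 units per day (horizontal axis) with SE bars for each of the 46 genes (vertical axis), coloured by class and filled where the adjusted p was under 0.05. All slopes but those of Psmb1, Psmd10, Psme1 and Psme2 are below 0, and the filtered genes lie between −0.34 and 0.07.

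Activator genes went both ways. Psme1 and Psme2, whose products form the hetero-oligomeric PA28 cap that interferon induces, lie on opposite strands of chromosome 14 with 5911 bases between them (Psme1 at 56197330 to 56200364, Psme2 at 56206276 to 56209858 in mm9). Psme2 stood at 7.72, 7.91, 8.47, 8.12, 8.42 and 8.62 on days 0 to 5, with all later days above day 0. It was 1.87-fold higher on day 5 (log2 0.90, counting interval 0.58 to 1.23), and its unfiltered slope of 0.16 ± 0.05 passed (limma adjusted p = 0.0418), the only called rise among the 46. Psme1 stood at 8.95, 8.78, 9.34, 8.92, 9.18 and 9.26, so days 1 and 3 lay below day 0 and the others above (slope 0.07 ± 0.05, limma adjusted p = 0.297). The size of both day 5 differences depended on scaling. That of Psme1 was 0.31 as deposited, 0.022 with median-centred libraries and 0.042 with quantile normalization. That of Psme2 was 0.62 with median-centred libraries and 0.49, less than 1.5-fold, with quantile normalization. From day 1 to day 2, when most members stepped down, Psme1 stepped up by 0.55 (counting interval 0.32 to 0.79). Another mouse gene, Psme2b, is a near copy of Psme2, and reads from the pair may be shared.

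Psme3, the nuclear PA28 gamma, ran with the core genes. It stood at 12.00, 11.93, 11.30, 11.23, 11.05 and 10.96, days 0 and 1 above all others, and was 2.07-fold lower on day 5 (slope −0.23 ± 0.04, limma adjusted p = 0.00543). Psme4, the PA200 cap, stood at 12.01, 12.03, 11.89, 11.71, 11.83 and 11.69 with a slope of −0.07 ± 0.03 that did not pass (limma adjusted p = 0.0933), but passed with median-centred libraries (0.0267) and after the length correction (0.00971). Psmf1, which encodes the inhibitor PI31, stood between 9.18 and 9.65 with a slope of −0.09 ± 0.04 (limma adjusted p = 0.0833). Psmc3ip, the match that is no subunit, went from 8.38 on day 0 to 7.76 on day 5 below the filter (unfiltered slope −0.18 ± 0.06, limma adjusted p = 0.0498).

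An F-test in limma with a linear and a squared day term, which picks up bent courses as well as straight ones, called 23 of the 39 members (52.3% of all fitted genes). The smallest values among members with their highest or lowest day between day 1 and day 4 were those of Psmd13, Psmg1 and Psmc4 (limma adjusted p = 0.00387, 0.00463 and 0.00816). All 3 are described above and share a low on day 4, with day 5 within 0.16 of it on the log2 scale.

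Member transcripts are short, and length moved with the libraries. Their median length was 1296 nt, against 2940 nt over all symbols, and across all symbols the day 5 minus day 0 difference had a Spearman rho of 0.22 with length (0.081 over the 46 members). With each library corrected by a smooth curve on length, 17 of the 39 members fell and 2 rose, against 26.4% and 25.3% of all genes; 15 of the 23 falls held, those of Psma4, Psmb2, Psmb7, Psmd4, Psmd7, Psmd8, Psmd12 and Psmg2 did not, and Psme4 and Psmf1 were added. The rises were those of Psme1 (slope 0.16, limma adjusted p = 0.046) and Psmb1 (0.13, limma adjusted p = 0.007). By class, 8 of 17 fitted 19S subunits and 5 of 14 fitted core genes fell after this correction, from 12 and 8 before. The median day 5 difference became −0.48 over the 46 members, against −0.018 over all symbols. Of the members 42 were still lower, and of all 12071 symbols 6116 were lower after this correction. Leaving out single libraries changed the number of falls as well: 13 without day 0, 14 without day 4 and 16 to 24 without another day. In each of these fits 37 of 39 slopes were negative, and 11 genes fell in every one: Psma5, Psmb5, Psmb6, Psmc2, Psmc4, Psmc5, Psmd1, Psmd2, Psmd13, Psme3 and Psmg1. The matching shares over all fitted genes were not counted for these fits, so the counts cannot be set against them.

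The median of all symbols rose by 0.29 log2 units from day 0 to day 5 in the deposited values. With each library centred on its median, 44 of 46 members were lower on day 5 (55.4% of all symbols were), 39 of them by 1.5-fold or more (35.4% of all symbols), and 35 of 39 fell by the limma slope (32% of all fitted genes). With quantile normalization 43 were lower (54.8% of all symbols), 25 by 1.5-fold or more (34.8%), and 27 of 39 fell (28.3% of all fitted genes). Under both scalings 0 of 39 rose (22.7% of all fitted genes with median-centring and 21.6% with quantile normalization), in the limma fit also at an unadjusted p under 0.05. Psme2 lay below the filter and is not among these 39. Quantile normalization moved members in both directions: the day 5 difference of Psmd2 went from −0.69 to −0.47 and that of Psmb10 from −1.49 to −1.97.

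Proteasome partners outside the Psm names were described from a fixed list of 31 genes, of which 29 were in the table and 28 fitted. Of the 28, 10 fell and 4 rose (26.6% and 25.9% of all fitted genes did), with a median slope of −0.09. Pomp, the chaperone of core maturation, went from 10.57 to 9.83 (slope −0.15, limma adjusted p = 0.0273), and the ubiquitin receptor gene Adrm1 from 11.47 to 10.80 (−0.17, limma adjusted p = 0.0123). Pomp no longer passed after the length correction (adjusted p = 0.315). The shuttle factor gene Ubqln4 went from 11.96 to 11.07 (slope −0.20, limma adjusted p = 0.00605).

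The genes of a pair of related transcription factors rose while most subunit genes fell. Nfe2l2, the oxidative stress factor, rose from 9.85 to 12.00, 4.44-fold (slope 0.47 ± 0.04, limma adjusted p = 0.00193). Nfe2l1 rose from 11.69 to 12.50 (slope 0.15 ± 0.04, limma adjusted p = 0.013; adjusted p = 0.0528 after the length correction). Ddi2, the protease that cuts Nfe2l1 protein into its active form, fell from 10.17 to 9.05 (slope −0.24 ± 0.05, limma adjusted p = 0.00807). Other called rises were the shuttle gene Ubqln2 (slope 0.42, limma adjusted p = 0.027) and AI314180, the mouse gene of the proteasome adaptor ECM29 (0.25, limma adjusted p = 0.0258).

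Antigen presentation and interferon genes, were described from a further list of 21. Of the 10 fitted, 7 rose and 0 fell (25.9% of all fitted genes rose). Among the 19 that the table holds, 13 had gained 1.5-fold or more by day 5 (36% of all symbols had). Only 1, H2-D1, had lost as much (26.5% of all symbols had). The MHC class I gene H2-K1 climbed from 8.06 to a peak of 10.44 after 2 days, then sank to 7.73 by day 5. Its slope of −0.30 did not pass (limma adjusted p = 0.289). H2-D1, below the filter, likewise climbed from 7.59 to a day 2 peak of 9.23 and ended day 5 lower, with 6.78. B2m encodes the constant chain of MHC class I molecules and rose from 6.03 to 10.98 (slope 1.08 ± 0.14, limma adjusted p = 0.00299). Pdia3 (0.35), Ifnar1 (0.26), Stat2 (0.19), Tapbp (0.17) and Jak1 (0.15) rose as well, with limma adjusted p from 0.00588 (Pdia3) to 0.0434 (Jak1). Canx was the other called rise (0.14, limma adjusted p = 0.0219). Jak1 and Canx no longer passed after the length correction (limma adjusted p = 0.1 and 0.0956). Below the filter the peptide transporter gene Tap1 went from 5.19 to 9.22. Irf1, an interferon response factor, was at 8.95 on day 0 and 8.91 on day 5 (limma adjusted p = 0.326).

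**Figure D4:**
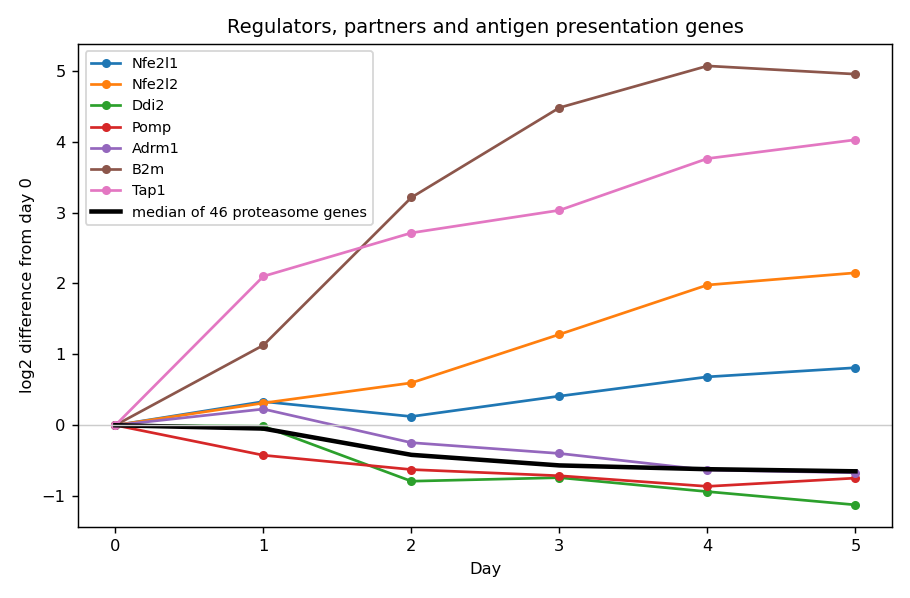
Difference from day 0 on the log2 scale (vertical axis) by day (horizontal axis) for 7 genes of the partner and antigen presentation lists, with the median of the 46 proteasome genes in black. B2m and Tap1 end 4.95 and 4.03 above day 0, Nfe2l2 ends 2.15 above and Ddi2 1.12 below, and the proteasome median ends at −0.65.

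Day 6 is given apart, because its library differed from the others with transcript length. Across all 12071 symbols the day 6 minus day 5 difference had a Spearman rho of −0.70 with length, and across the 46 members −0.86. The median difference was 1.93 for the members and −1.06 for all symbols. Of the members, 38 were at least 1.5-fold higher than on day 5 (22.9% of all symbols were) and 3 at least 1.5-fold lower (58.3% of all symbols were).

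The 3 lower genes were among the longest members: Psme4 with 6489 nt (11.69 to 9.30), Psme3 with 2630 nt (10.96 to 9.73) and Psmd1 with 3281 nt (11.84 to 11.06). Among the short ones, Psme2 with 908 nt went from 8.62 to 11.73 and Psmb1 with 1042 nt from 11.56 to 14.13. After the length correction over 7 libraries the members' median difference was 0.74, against −0.023 for all symbols; 27 of 46 were at least 1.5-fold higher (28.4% of all symbols were) and 0 at least 1.5-fold lower (32.5% of all symbols were). Corrected differences ran from −0.33 (Psme3) to 2.75 (Psmd9). Over all 7 libraries limma called 0 member falls and 0 rises (3 and 1 at an unadjusted p under 0.05), with 3.78% and 1.6% of all genes called. With the length correction it called 2 falls and 2 rises among 41 members fitted, against 10.2% and 10.3% of all genes. Transcript length moved with this library, and its part in the members' day 6 values was not tested beyond this correction.

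**Figure D5:**
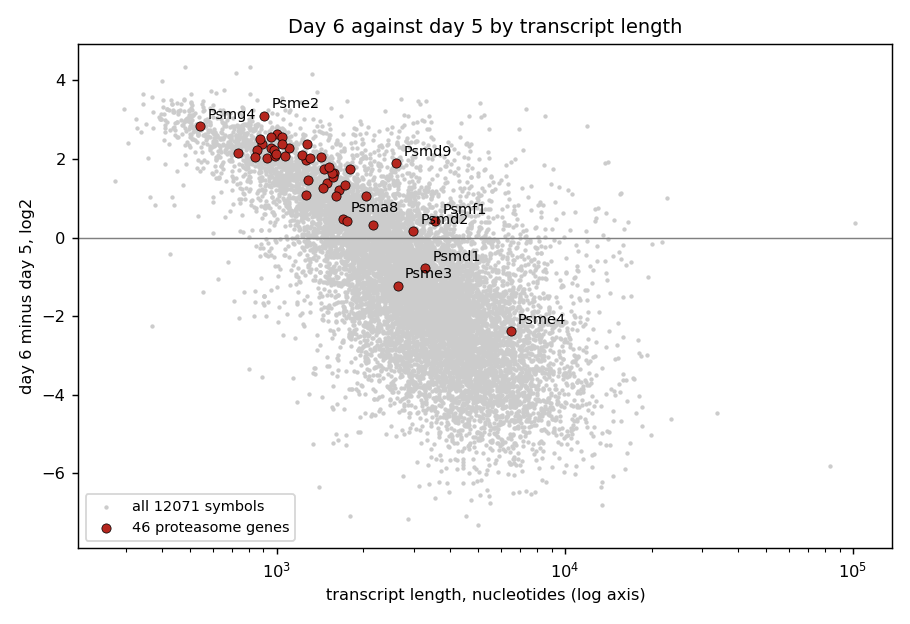
Day 6 minus day 5 on the log2 scale (vertical axis) against transcript length in nucleotides on a log axis (horizontal axis), with all 12071 symbols in grey and the 46 proteasome genes in red. Short members lie near 2 to 3 and the longest, Psme4, at −2.39.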

How the data were processed

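The 7 CCE libraries, 1 per day, were stranded total RNA libraries with ribosomal RNA removed, per the labels' protocols. Alignment used BWA 0.7.3 and mm9 (named in the submitters' processing notes). Counting, strand setting and scaling: not given in the sources used here. Values deposited by the authors are on a log2 scale, for 15296 RefSeq transcripts. On the linear scale, all values up to 1000 reads lay within 0.05 of a whole multiple of 1 step per library, so reads could be recovered, from 7194325 (day 6) to 17923852 (day 4). They give exact binomial (Clopper-Pearson) 95% intervals, which cover counting error only. Near copies, pseudogenes and overlapping genes may share reads.

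Slopes over days 0 to 5 came from limma 3.58.1 (R 4.3.3; variance moderated by empirical Bayes along the mean), with no pseudocount; the fit was checked on simulated data. The length correction was a lowess curve (span 0.3) of each library's deviation on log2 length. Positions are those of the table (mm9, counted from 1). Named by rule were the catalytic and activator genes, the 4 largest called slopes in each direction among the other members, and the 3 smallest F-test p among turning courses; from the further lists, the largest called slopes and a few fixed genes, some of which are not reported here. Other members were named after their values were seen. The members and lists were chosen with earlier results of these data known, and the motifs and printed promoters after the values were seen. Alternatives were all 7 libraries, each library left out, no filter, median-centring, quantile normalization, length correction, summed transcripts, 1 read added and no mean trend. All 7 libraries with length correction was added after seeing the data.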

Additional observations from a re-analysis of the deposited data

How the results depend on the processing

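No paired analysis was possible because each day has 1 library. With 1 library left out in turn, the number of members that fell ranged from 13 to 24, the F-test calls from 10 to 21, and the rising members stayed at 0. The shares over all fitted genes were not counted for these fits. Over the same fits the median slope ranged from −0.16 to −0.12 for all members, −0.16 to −0.096 for 20S alpha, −0.20 to −0.13 for 20S beta, −0.13 to −0.098 for 19S ATPase, −0.19 to −0.13 for 19S non-ATPase, −0.077 to −0.059 for activator and −0.31 to −0.22 for 20S assembly genes, and the slope of the Psmb10 to Psmb7 ratio from −0.26 to −0.088. With all 7 libraries 0 members fell and the F-test called 5; the median slopes in the same order were 0.082, 0.12, 0.12, 0.070, −0.024, −0.017 and 0.032, and the slopes of Psmb5 (0.066), Psmb6 (0.10), Psmb7 (0.12) and Psmb3 (0.040) turned positive. With length correction added to that, 2 fell, 2 rose and the F-test called 9, with medians of 0.0028, 0.036, −0.0051, 0.045, −0.048, 0.051 and −0.088. Over days 0 to 5, length correction gave 2 rising members and medians of −0.098, −0.034, −0.055, −0.055, −0.11, −0.15 and −0.15; day 5 minus day 0 medians became −0.34 (20S alpha), −0.34 (20S beta) and −0.74 (20S assembly), and the day 6 minus day 5 median 0.74. Median-centring gave 35 falling members, day 5 minus day 0 medians of −0.94, −0.88, −0.92, −0.78, −0.998, −0.29 and −1.39 in that order, and a day 6 minus day 5 median of 3.07. Quantile normalization moved the 20S assembly genes, to a slope of −0.32 and a difference of −1.53. No filter and summed transcripts each gave 1 rising member and an activator median slope of −0.0011, and summed transcripts −0.34 for 20S assembly; among genes past the filter the activator day 5 difference was −0.32. The cause of these shifts was not tested. Low read numbers limit Psma8, Psmb10, Psme2, Psmg3 and Psmg4.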
